A study of Mus musculus with 3 samples.

Results

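The 10 genes described here encode the cyclin D to Rb axis of the G1 phase: the D cyclins Ccnd1, Ccnd2 and Ccnd3, their kinases Cdk4 and Cdk6, the INK4 inhibitors Cdkn2a, Cdkn2b, Cdkn2c and Cdkn2d, and the retinoblastoma gene Rb1. They were chosen by symbol as members of this pathway, and all 10 were found among the 24467 gene symbols of the count tables. Polyadenylated RNA was sequenced from 3 samples of 5TGM1.BRE cells, which form 1 group. 5TGM1.BRE is an engraftable, bortezomib-resistant mouse myeloma line: the parental line arose from a spontaneous myeloma of C57BL/KaLwRij mice, and the resistant cells came out of the marrow of mice of that strain. All 3 samples were grown with 20% serum and kept in 10 nM bortezomib, an inhibitor of the proteasome. They were without the drug for at least 72 h before RNA was taken from 10000000 cells. The cell type label of replicate 1 does not mention culture in bortezomib, whereas its title and growth protocol match those of the other 2 samples. The group is a single cell line, the sensitive parental line was not analysed here, and the labels do not say whether the samples were separate cultures. SDs and p-values thus describe how far these 3 samples differ, possibly for technical reasons only, and no change with resistance was measured.

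D cyclins are the growth-factor-responsive cyclins of G1. Bound to Cdk4 or Cdk6 they phosphorylate Rb, which otherwise holds E2F transcription factors inactive, and release of E2F starts the genes of DNA replication. INK4 proteins bind Cdk4 and Cdk6 and keep D cyclins away from them. In human myeloma some D cyclin is raised in nearly every tumour, through translocation or through transcription factors such as MAF, and deletion of RB1 or CDKN2C recurs.

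The 3 D cyclins share the motif with which they dock on Rb (leucine, any residue, cysteine, any residue, glutamate) near their amino terminus. The first 42 bases of each coding sequence (GENCODE M21) are shown for their likeness around this motif, with the motif's codons in capitals, codons 5 to 9 in Ccnd1 and 3 to 7 in Ccnd2 and Ccnd3.
Ccnd1: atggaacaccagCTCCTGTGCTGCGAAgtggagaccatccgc
Ccnd2: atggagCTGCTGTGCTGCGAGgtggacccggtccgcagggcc
Ccnd3: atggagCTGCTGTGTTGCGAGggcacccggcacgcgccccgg
Despite this likeness the family can be told apart by short reads. Aligned coding bases were 70.4% identical between Ccnd1 and Ccnd2, 65.9% between Ccnd1 and Ccnd3 and 68.8% between Ccnd2 and Ccnd3. The longest run of identical coding bases was 20 for Ccnd1 and Ccnd2, 20 for Cdk4 and Cdk6, and 23 for Cdkn2a and Cdkn2b, the longest of any pair within these families. Each of these 3 runs is the longest that coding sequences of its family share. A read of coding bases longer than its run also covers bases that differ.
Ccnd1 and Ccnd2: TTCAAGTGCGTGCAGAAGGA
Cdk4 and Cdk6: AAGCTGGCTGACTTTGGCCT
Cdkn2a and Cdkn2b: CGGGAAGGCTTCCTGGACACGCT
None of the 50-base stretches of the 4 INK4 genes' transcripts occurred in a transcript of another gene, on either strand. Of those of Ccnd1, 21.6% did, all in Oraov1 (named LTO1 in GENCODE), whose exons overlap 1100 bases of Ccnd1 on the opposite strand. Of those of Cdk4, 17.0% did, in Tspan31 and in a number of other genes, of which Tspan31 overlaps 641 exon bases of Cdk4 on the opposite strand. Whether the counting used strand is not given in the sources used here. On the opposite strand, Bysl also overlaps 361 exon bases of Ccnd3, and 9330179D12Rik and Gm43126 overlap 368 and 372 of Ccnd2. If the counting did not use strand, reads of such partners in the overlaps cannot be told apart from those of Ccnd1, Cdk4, Ccnd3 and Ccnd2.

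Gene counts summed to 62303493, 45705994 and 59402218 in replicates 1, 2 and 3, and levels are given as CPM, the count per 1000000 counts of the library. The upper limit for a gene with no count is 3 counts, which is 0.0482, 0.0656 and 0.0505 CPM in turn. Limits and intervals cover counting error alone, because reads copied by PCR are not separate molecules. Of 8 plasma cell markers, 7 were at 1 CPM or more in every library, with a summed level of 4454 to 4569 CPM. Of 6 B cell markers 1 was (Ms4a1, while Bcl6 and Cr2 had 0 counts), of 6 T and NK cell markers and 6 myeloid markers none was, with sums of at most 0.369 and 0.370 CPM, and of 6 erythroid and 6 stromal markers 1 each was (Itga2b and Pecam1). By edgeR's quasi-likelihood test of each library against the other 2, used for all comparisons of libraries below, 51.6% of 11308 genes were called for replicate 3 (Benjamini-Hochberg adjusted p under 0.05), against 0.0796% for replicate 1 (0.0265% higher, 0.0531% lower) and 0.0531% for replicate 2 (0.0265% in each direction). Replicate 3 thus stands apart, and its difference followed gene length: over 10 equal bins of exon length, the median log2 fold change was 0.29 in the bin of shortest genes and -0.24 in that of the longest.

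Of the 10 genes, 9 were at 1 CPM or more in all 3 libraries, where 40.9% of all symbols were. The exception was Cdk6. Ccnd2 and Cdk4 were the most abundant, Cdkn2c was the main INK4 transcript, and Rb1, Cdkn2a, Cdkn2b and Ccnd1 were each below 10 CPM. In bulk RNA, fewer cells with a transcript and less of it per cell cannot be told apart.

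**Figure D1:**
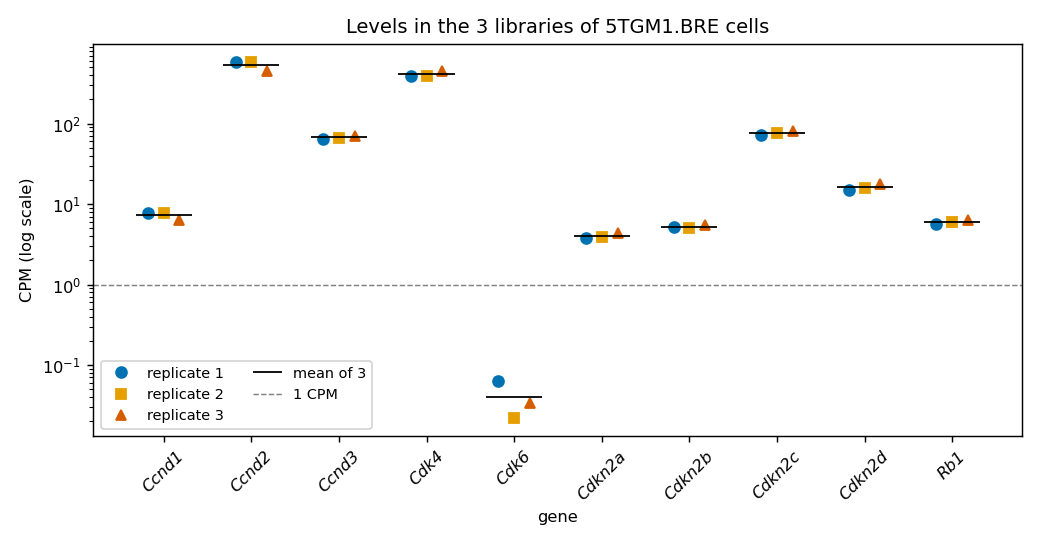
CPM (log scale) of the 10 genes in each of the 3 libraries, with the mean as a bar and 1 CPM as a dashed line. Ccnd2 and Cdk4 lie at 392.7 CPM or more in every library, and Cdk6 lies at 0.0642 CPM or less.

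Ccnd2 was the most abundant D cyclin transcript. The gene (chromosome 6, 127125162 to 127152193, minus strand; GRCm38, the assembly of mm10) had 585.5, 576.5 and 454.5 CPM in replicates 1, 2 and 3, a mean of 539 ± 73.2 CPM (SD, n = 3). Replicate 3 was the low library and lay outside the range of the other 2. Ccnd3 (chromosome 17, 47505051 to 47599691, plus strand), the D cyclin used most widely in lymphocytes, had 65.1, 66.2 and 70.7 CPM, a mean of 67.3 ± 2.96 CPM (SD, n = 3), with replicate 3 the highest. Ccnd1 (chromosome 7, 144929931 to 144939925, minus strand), which is not normally expressed in the B lineage, had 7.80, 7.70 and 6.36 CPM, or 486, 352 and 378 counts. Its antisense neighbour Oraov1 had 865, 659 and 876 counts, more than Ccnd1 in each library, and how many Ccnd1 counts come from it was not tested. Bysl, antisense to Ccnd3, had 7149, 5066 and 6749 counts, against 4056, 3027 and 4199 for Ccnd3. How many Ccnd3 counts come from Bysl was not tested either.

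Per kilobase of union exon length, on which scale levels of different genes can be compared, Ccnd2 made up 87.3, 87.0 and 83.7% of the summed D cyclin level in the 3 libraries. Ccnd3 made up 10.41, 10.71 and 13.96%, and Ccnd1 2.32, 2.32 and 2.34%. The share of Ccnd1 was thus nearly constant, and in replicate 3 Ccnd3 held more of the sum and Ccnd2 less. As log2 ratios per kilobase, Ccnd2 stood above Ccnd3 by 3.07, 3.02 and 2.58 in replicates 1, 2 and 3, a mean of 2.89 ± 0.27 (SD, n = 3) or 7.42-fold, which became 4.85-fold with longest transcripts. It stood above Ccnd1 by 5.23, 5.23 and 5.16, or 36.9-fold, which became 75.3-fold with coding lengths and 73.8-fold with no length. Ccnd3 exceeded Ccnd1 4.98-fold (log2 2.31 ± 0.23, SD, n = 3), which became 8.99-fold with longest transcripts and 9.27-fold with no length. By distance of log2 CPM over the 3 libraries, the genes nearest to Ccnd2 were Msn (distance 0.071), Fam120a (0.081) and Hyou1 (0.108), which describes a like level and no more.

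Cdk4 was almost the sole kinase transcript. Cdk4 (chromosome 10, 127063534 to 127067920, plus strand) had 395, 393 and 455 CPM, a mean of 414 ± 35.4 CPM (SD, n = 3), so replicates 1 and 2 were close and replicate 3 was the high library. Tspan31, its opposite-strand neighbour, was at 86.3 ± 3.04 CPM (SD, n = 3). Cdk6, the paralog that is prominent in many blood cells, (chromosome 5, 3341485 to 3531008, plus strand) had 4, 1 and 2 counts. Pooled over the libraries this is 0.0418 CPM, with an exact 95% binomial interval of 0.0168 to 0.0862 CPM. Per kilobase, the pooled ratio of Cdk4 to Cdk6 was 42813, with a counting interval of 20778 to 106491. As counts it was 9944 (4826 to 24733), and the count ratios in replicates 1, 2 and 3 were 6154 (2403 to 22588), 17948 (3221 to 708947) and 13520 (3742 to 111649). These intervals overlap, so no difference between libraries in this ratio was detectable at this depth. Per kilobase Cdk4 also exceeded Cdk2, the kinase of cyclins E and A, 6.08-fold (log2 2.60 ± 0.08, SD, n = 3), and 3.18-fold with no length.

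The stretch just upstream of Cdk4 is shown because it holds an uncommon number of copies of the letters CACGTG, the E-box to which Myc with Max and other proteins of their class can bind. Windows of 250 bases before annotated starts (RefSeq, GRCm38.p6) were matched for 7 of the 10 genes, 10 windows in all. Ccnd1, Ccnd2 and Rb1 had no window and were not searched. The windows were searched for CACGTG, which reads the same on both strands. It occurred 4 times before Cdk4 and 1 time before Cdk6, and in no other of these windows. Of all 32851 windows 6.02% held it, and 7 windows, or 0.0213%, held it at least 4 times. E2F sites, GGGCGG and TATAAA were searched as well, and CACGTG is shown for its number before Cdk4. The sequence is that of 249 bases up to the GENCODE start at chr10:127063285-127063533 on the plus strand, with the E-boxes in capitals.
Cdk4: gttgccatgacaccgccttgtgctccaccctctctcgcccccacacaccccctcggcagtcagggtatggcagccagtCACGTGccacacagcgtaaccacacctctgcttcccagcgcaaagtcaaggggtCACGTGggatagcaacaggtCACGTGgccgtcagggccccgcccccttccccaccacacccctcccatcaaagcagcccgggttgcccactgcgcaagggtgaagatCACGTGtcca
Myc was at 464 ± 7.70 CPM (SD, n = 3), and whether it bears on the Cdk4 level was not tested. The match describes these letters and no binding was measured.

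Among the INK4 genes, Cdkn2c led. Cdkn2c, which encodes p18 and limits plasma cell expansion in mice (chromosome 4, 109660876 to 109667189, minus strand), had 72.9, 76.3 and 80.2 CPM, a mean of 76.5 ± 3.66 CPM (SD, n = 3). Cdkn2d, which encodes p19Ink4d (chromosome 9, 21288410 to 21291407, minus strand), had 14.96, 15.97 and 18 CPM. For both, replicate 3 was the highest library. Per kilobase, Cdkn2c made up 61.9 ± 0.781% of the summed INK4 level and Cdkn2d 22.5 ± 0.788% (SD, n = 3 for each). Cdkn2c exceeded Cdkn2d 2.75-fold (log2 1.46 ± 0.07) and Cdkn2a 8.32-fold (log2 3.06 ± 0.04; SD, n = 3 for each), or 4.70- and 19.1-fold with no length.

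Cdkn2a and Cdkn2b lie side by side on chromosome 4, on the minus strand, at 89274471 to 89294653 and 89306299 to 89311039. Cdkn2b, which encodes p15, had 5.22, 5.03 and 5.54 CPM, with a coefficient of variation of 4.87% where counting alone would give about 5.91%. Cdkn2a had 3.76, 3.94 and 4.34 CPM, from 234, 180 and 258 counts. The spread of Cdkn2b is no larger than that of counting, and that of Cdkn2a, at 7.49% against 6.76%, is close to it. Cdkn2a carries 2 annotated transcripts with different first exons, Cdkn2a-201 with its start at 89282192 for p16Ink4a and Cdkn2a-202 with its start at 89294653 for p19Arf, an activator of p53. Counts per gene do not separate them, so the Cdkn2a level is not a level of p16Ink4a. Their levels per kilobase, 3.42 ± 0.257 for Cdkn2a and 3.79 ± 0.184 for Cdkn2b (SD, n = 3 for each), overlapped across libraries, and the order turned when longest transcripts gave the lengths (log2 ratio -0.15 against 0.24).

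Rb1 was the lowest of the 9 expressed genes per kilobase. Rb1 (chromosome 14, 73183673 to 73325822, minus strand) had 5.60, 6.02 and 6.35 CPM, from 349, 275 and 377 counts. Its coefficient of variation was 6.23%, against about 5.52% from counting. At 0.996 ± 0.0621 CPM per kilobase (SD, n = 3), it lay above 8.61% of 9970 expressed genes with a length, while Ccnd1 lay above 13.0%, Cdkn2c above 78.9%, Ccnd2 above 89.6% and Cdk4 above 96.0%. Rcbtb2 and Lpar6, which overlap Rb1 exons on the opposite strand, had 0 counts in every library.

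The other pocket proteins were more abundant than Rb1. Rbl1, which encodes p107, had 96.7, 93.4 and 79.4 CPM, and Rbl2, which encodes p130, had 36.7, 33.5 and 27.4 CPM. Per kilobase Rbl1 exceeded Rb1 15.02-fold (log2 3.91 ± 0.24) and Rbl2 exceeded it 4.30-fold (log2 2.10 ± 0.30; SD, n = 3 for each). Rb1 made up 4.25, 4.76 and 5.89% of the summed level of the 3 genes, and was the smallest part in each library.

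**Figure D2:**
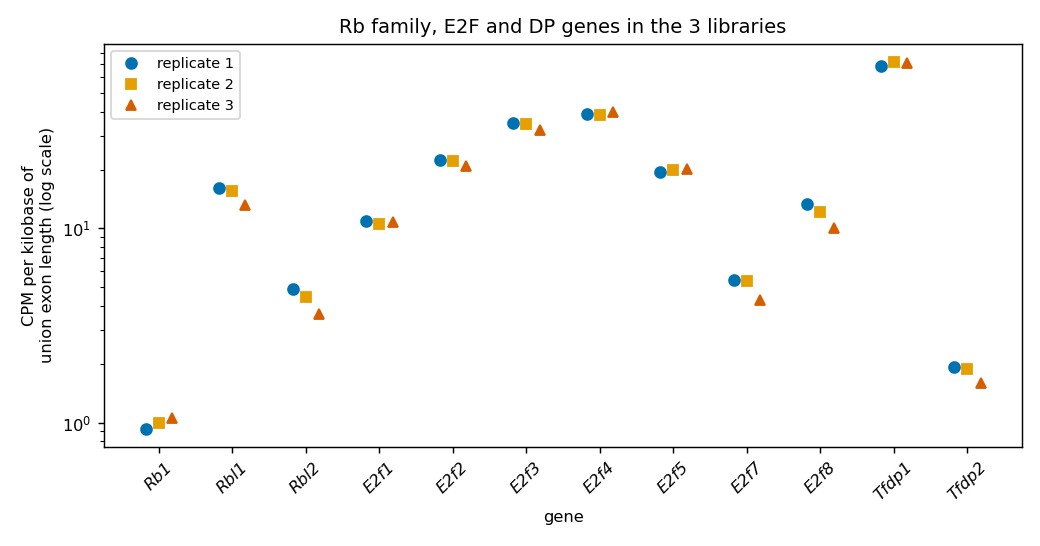
Levels per kilobase of union exon length (log scale) of the Rb family, E2F and DP genes with at least 1 CPM, in each library. Rb1 lies near 1 CPM per kilobase, below all other genes drawn, and Tfdp1 near 70.6 is the highest.

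Ordered by mean CPM per kilobase of union exon length, the levels were Cdk4 (127.5), Ccnd2 (57.3), Cdkn2c (28.5), Cdkn2d (10.4), Ccnd3 (7.67), Cdkn2b (3.79), Cdkn2a (3.42), Ccnd1 (1.55), Rb1 (0.996) and Cdk6 (0.00285). Neighbours in this order did not overlap across the 3 libraries, except Cdkn2b and Cdkn2a. The length taken for a gene matters. With the longest coding sequence as the length, Ccnd2 stood above Cdk4, at 621.5 against 455.8, and Ccnd3 above Cdkn2d, at 76.9 against 32.8. By exon, transcript or coding length alike, Cdkn2c was the third, Rb1 the ninth and Cdk6 the last.

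**Figure D3:**
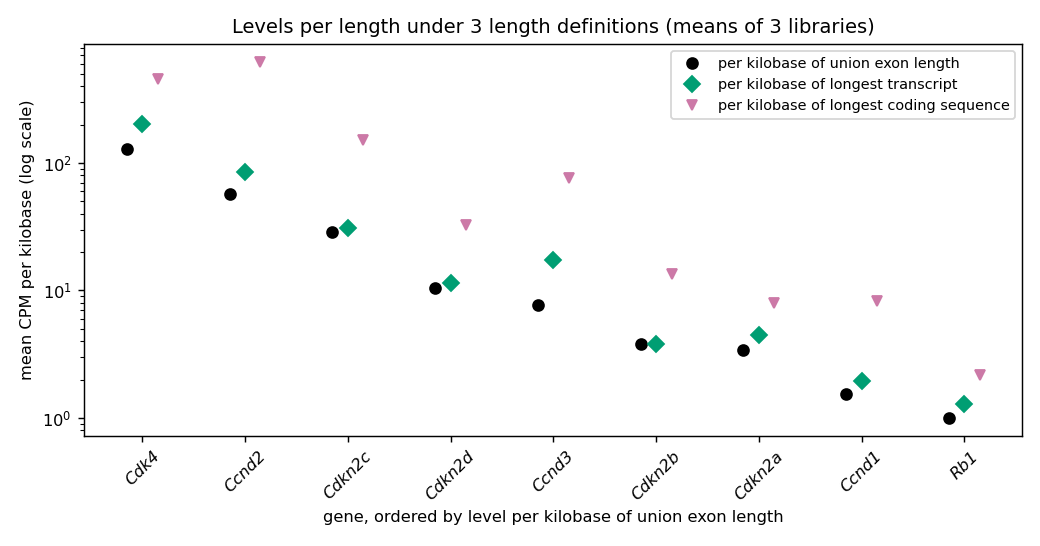
Mean CPM per kilobase (log scale, 3 libraries) of the 9 genes at 1 CPM or more, for 3 definitions of gene length. Cdk4 leads by exon and transcript length, Ccnd2 by coding length, and Rb1 is the lowest by each.

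Set against each other per kilobase, the INK4 transcripts were fewer than those of their target kinases. The summed INK4 level was 2.77-fold below that of Cdk4 and Cdk6 (log2 -1.47 ± 0.06, SD, n = 3), 2.21-fold with coding lengths and 4.05-fold with no length. It was 1.44-fold below that of the D cyclins (log2 -0.52 ± 0.25), a gap that was 3.42-fold with coding lengths and narrowed from -0.71 and -0.63 in replicates 1 and 2 to -0.24 in replicate 3. The D cyclins were 1.92-fold below the kinases (log2 -0.94 ± 0.29), and 1.55-fold above them with coding lengths, so that order depends on the length taken. The E cyclins Ccne1 and Ccne2, which act after the D cyclins, were together 2.04-fold above the D cyclins (log2 1.03 ± 0.16, SD, n = 3 for each of these ratios), and 2.07-fold below them with coding lengths. Each of the 14 ratios examined kept its sign in 3 of 3 libraries, and an exact permutation test that flips signs, two-sided, gave p = 0.25 for each (0.25 after Benjamini-Hochberg adjustment), the smallest p that 3 libraries allow. The test therefore cannot pass 0.05 here.

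Between libraries, none of the 9 genes tested was called in replicate 1 or in replicate 2 by edgeR, 0 had an unadjusted p under 0.05 there, and DESeq2 called none. The SEs in those tests, which have replicate 3 among the other 2 libraries, were 0.18 to 0.30, against 0.04 to 0.13 for replicate 3, so differences of the size called in replicate 3 were not detectable there. In replicate 3, 4 were higher (24.8% of all genes tested were) and 2 lower (26.8% of all), and their median log2 fold change of 0.14 compares with 0.01 over all genes. Ccnd2 was lower, at a log2 fold change of -0.32 ± 0.04 (SE, edgeR adjusted p = 4.84e-12), and so was Ccnd1, at -0.25 ± 0.10 (adjusted p = 0.030). Cdk4 was higher at 0.24 ± 0.04 (edgeR adjusted p = 1.03e-07), and so were Cdkn2d at 0.25 ± 0.07, Ccnd3 at 0.14 ± 0.04 and Cdkn2c at 0.14 ± 0.04 (adjusted p of 0.00187 to 0.00275). Cdkn2a, Rb1 and Cdkn2b were at 0.21, 0.16 and 0.14, and did not pass (edgeR adjusted p of 0.169, 0.219 and 0.322). With 1 library in one arm and 1 residual degree of freedom, the SE and p rest on the spread between replicates 1 and 2, moderated across genes, and hold no spread of replicate 3, which is assumed to vary alike. With about 5 in 10 genes called, the members' calls are to be read against that share.

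**Figure D4:**
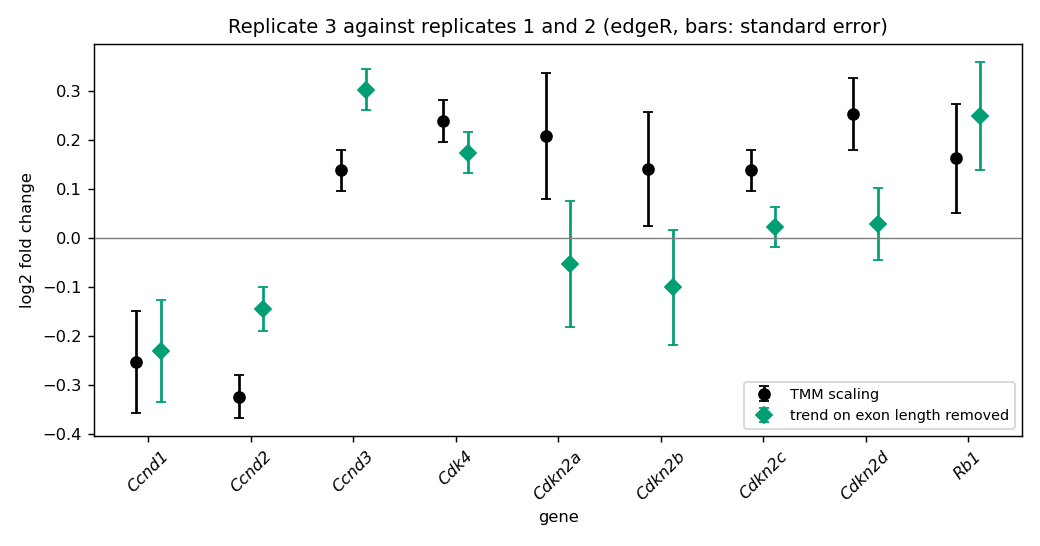
Log2 fold change of replicate 3 against replicates 1 and 2 with its standard error, for the 9 genes tested, before and after removal of the trend on exon length. Ccnd2 stays below 0 and Cdk4 and Ccnd3 above it, while Cdkn2c and Cdkn2d move to near 0 and Cdkn2a and Cdkn2b to below it.

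The calls of the INK4 genes went with the trend on gene length. Once that trend was removed, 34% of 11235 genes were called (15.8% higher, 18.3% lower), and of the 9 genes 2 were higher and 1 lower. Ccnd3 was higher at 0.30 ± 0.04 and Cdk4 at 0.17 ± 0.04, and Ccnd2 was lower at -0.14 ± 0.04 (SE). The median log2 fold change of the 9 genes went from 0.141 to 0.022, and that of all genes tested from 0.005 to -0.004. The trend was taken on union exon length, which is 8775 bases for Ccnd3, against 3858 for its longest transcript. Bins with median lengths of 8336 and 3930 bases had median log2 fold changes of -0.170 and 0.012. How far the Ccnd3 value depends on the length taken was not tested. Cdkn2c and Cdkn2d came to 0.02 and 0.03, and Ccnd1 to -0.23, none of which passed. DESeq2, which called 28% of genes (11.9% higher, 16% lower), called Cdk4 as higher and Ccnd2 as lower.

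**Figure D5:**
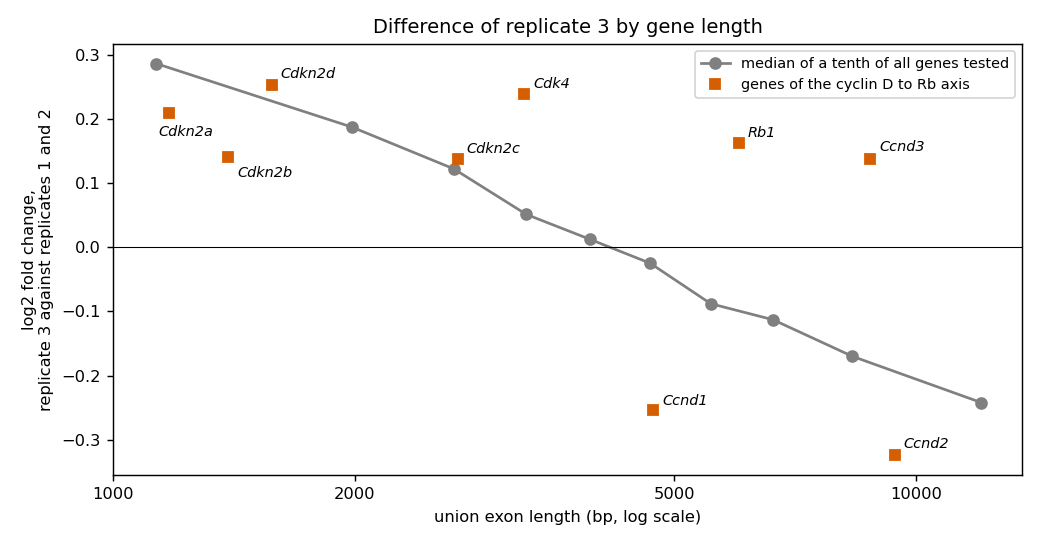
Log2 fold change of replicate 3 against replicates 1 and 2 by union exon length (log scale), with the median of each of 10 bins of the genes tested in grey. Cdkn2c lies near the grey line, while Cdk4, Ccnd3 and Rb1 lie above it and Ccnd1 and Ccnd2 below.

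Of 12 genes listed for the Rb family, E2F and their DP partners, 11 were at 1 CPM or more. Tfdp1, the main DP partner, led per kilobase at 70.6 ± 1.52, followed by the repressor-type E2f4 at 39.0 ± 0.732 and the activator E2f3 at 33.9 ± 1.43 (SD, n = 3 for each), and E2f6 had 1 count in all. In replicate 3 none of the 11 tested was higher (0 also at an unadjusted p under 0.05 and by DESeq2) and 5 were lower: Rbl1, Rbl2, E2f7, E2f8 and Tfdp2. Over all genes tested 24.8% were higher and 26.8% lower, or 15.8% and 18.3% with the length trend removed, and these shares are the background of each list count below. With that trend removed Rbl1, Rbl2 and E2f8 were lower, at -0.14, -0.19 and -0.25. Rb1 was not called in either fit, so within the pocket protein family the 2 abundant members were lower in that library and the difference from Rb1 was not tested.

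Targets of E2F were all at 1 CPM or more, 18 of 18, and Rrm2 (177 ± 2.15), Pcna (147 ± 10.4) and Mcm6 (102 ± 4.4) led in CPM per kilobase (SD, n = 3 for each). In replicate 3, 5 were higher and 8 lower (24.8% and 26.8% of all genes were), with a median log2 fold change of -0.07, and 3 were higher and 7 lower with the length trend removed. Of 10 genes for cyclins E and A, Cdk2 and its activators, 9 were expressed, Ccna2 (83.1 ± 3.69 CPM per kilobase), Cdk1 (73.2 ± 4.66) and Ccne1 (70.4 ± 1.48; SD, n = 3 for each) highest, and Ccna1, a cyclin of the germ line, had 0 counts. Among the 9 tested, 4 were higher and 1 lower in replicate 3, and 3 and 0 with the length trend removed. Of 8 genes for the CIP/KIP inhibitors and their turnover, 7 were expressed, led by Cks1b, a cofactor in p27 degradation, at 179 ± 20.1 CPM per kilobase, Cks2 at 84.9 ± 2.55 and Cdkn1a, which encodes p21, at 74.9 ± 3.28 (SD, n = 3 for each). Over the 7 genes the median log2 fold change of replicate 3 was 0.042, or 0.000 with the length trend removed. Cks1b, Cks2 and Cdkn1a were at 0.302, 0.072 and 0.137, or 0.036, -0.227 and 0.095 with that trend removed.

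All 11 genes listed for the folding and turnover of D cyclins and Cdk4 were at 1 CPM or more, where 40.9% of all symbols were. Hsp90ab1 was at 1365 ± 29.9 CPM per kilobase, Ddb1 at 47.8 ± 4.88 and Cdc37, the cochaperone of Cdk4, at 47.3 ± 2.54 (SD, n = 3 for each). Among the 11, 2 were higher and 4 lower in replicate 3, where 24.8% and 26.8% of all genes were, and 3 and 3 with the length trend removed. Ambra1, which marks D cyclins for degradation, had 41.2, 39.8 and 31.2 CPM and was among the lower, at -0.35 ± 0.06 (SE, edgeR adjusted p = 1.53e-07). Of 7 genes of the DREAM and MuvB complexes all were expressed, with Rbbp4, Lin37 and Lin54 highest per kilobase. The log2 fold changes of these in replicate 3 were 0.069, 0.303 and -0.259, or 0.234, 0.061 and -0.181 with the length trend removed. The median of the 7 genes was -0.092, or 0.012 with that trend removed. All 12 genes listed for Cdkn2a and Cdkn2b, their regulators and the neighbouring gene Mtap, were expressed. Bmi1, a Polycomb repressor of this locus, was at 144 ± 9.19 CPM per kilobase, Suz12 at 72.5 ± 6.89 and Eed at 70.2 ± 0.923 (SD, n = 3 for each). The median log2 fold change of these 12 genes in replicate 3 was -0.036, or 0.006 with the length trend removed. Bmi1 was at -0.130 and Suz12 at -0.209, or -0.148 and -0.173 with that trend removed. Eed was at 0.062, or 0.035.

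Among genes known to raise D cyclins or to be translocated in myeloma, 3 were at 1 CPM or more. Of all symbols 40.9% were, and this list is too short to be set apart from that share. Irf4 was at 199 ± 9.2, Myc at 171 ± 2.83 and Whsc1, the older symbol of Nsd2, at 6.34 ± 0.9 CPM per kilobase (SD, n = 3 for each). Maf and Fgfr3 had 1 count each over the 3 libraries. Whsc1 was the 1 of the 3 called in replicate 3, where it was lower at -0.34 ± 0.04 (SE, edgeR adjusted p = 3.11e-15) and not called once the length trend was removed.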

How the data were processed

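The deposited tables, 1 per sample, hold raw counts per gene symbol. The tools named for the authors' steps, per the submitters' processing notes, are bcl2fastq, cutadapt 4.2 and STAR, with the build mm10. The counting program, annotation and strand setting were not given in the sources used here. All 3 samples form 1 group by their titles.

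Symbols were matched to GENCODE M21 (GRCm38), 23688 directly and 468 through another symbol, so 98.7% received a length. CPM used the library total. Detection was set at 1 CPM in all libraries. Ratios between genes divided counts by union exon length. Each library was set against the other 2 with edgeR 4.0.16 in R 4.3.3 (TMM, filterByExpr, quasi-likelihood test), checked on simulated counts. In the simulation all libraries had the same spread, few genes changed and no length trend was present. It therefore does not show how reliable the calls of replicate 3 are. The SE is the log2 fold change over the square root of F. The length trend was removed by loess (span 0.3). DESeq2 1.42.0, RLE or no scaling, no filter, other lengths and limits, a pseudocount of 0.1 in place of 1, and leaving out each replicate were alternatives. Python 3.11.15 and SciPy 1.17.1 did the rest. The genes named are the 10 members, the 3 highest per kilobase and those at 0 of each list, and partners of ratios or overlaps. Others were chosen after their values were seen, among them E2f6, E2f7, E2f8, Tfdp2, Ambra1, Maf, Fgfr3 and the chromosomal neighbours. A gene of the lists is not reported here. Members and lists were chosen with earlier results of these data known.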

Additional observations from a re-analysis of the deposited data

How the results depend on the processing

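The 9 genes at 1 CPM or more were 10 with any count as the limit, and 9 under the other limits, with TMM-scaled library sizes and without each replicate. With the longest transcript, the coding sequence or no length, 4, 6 and 8 of the 10 places in the order changed, and leaving out any replicate changed none. Of the 14 ratios, 3 turned with the length. Cdkn2a to Cdkn2b became 0.242 (log2) with the longest transcript. The D cyclins to Cdk4 and Cdk6 became 0.629 with coding lengths and 0.563 with none, and the E to the D cyclins -1.052 and -0.565. No ratio turned when a replicate was left out. Of 4 members higher in replicate 3, 2 were with the length trend or the length and GC trends removed and 1 by DESeq2, and of 2 lower members 1 was under each of these 3 settings. RLE or no scaling and no filter kept the counts at 4 and 2. With the length trend removed the uncalled Cdkn2a and Cdkn2b turned to -0.053 and -0.101, with GC as well to -0.093 and -0.116, and Cdkn2c to -0.005. The cause of these changes was not tested, other than that the settings take out the trend. With 1 replicate left out, the log2 differences of replicate 3 are values with no test, and all 9 kept their sign. No paired analysis was possible because there is 1 group. Cdk6, at 1 to 4 counts, is limited by depth.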

Other observations

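The levels of genes near some members are given here, for the nearest protein-coding genes that do not overlap them. Mtap, which lies 93389 bases from Cdkn2a and is often lost together with it in tumours, was at 152 CPM, while Dmrta1, on the far side of Cdkn2b, was at 0.0399 CPM. Around Rb1, Itm2b, which lies 36403 bases away, was at 496 CPM and Med4 at 28.9 CPM, while Cysltr2, on the other side, had 0 counts. Fam133b, 12824 bases from the end of Cdk6, was at 83.6 CPM. Fgf15 and Fgf4, the nearest on one side of Ccnd1 beyond the overlapping Oraov1, had 0 counts, and Tpcn2, on the other, was at 9.04 CPM. Beside Ccnd2, Tigar, a regulator of glycolysis, was at 86.1 CPM and Fgf23 had 0 counts.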
